A study of Homo sapiens with 12 samples.

Results

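Heme synthesis was followed through 9 genes: ALAS1, ALAS2, ALAD, UROS, UROD, CPOX, PPOX and FECH, which encode enzymes of the pathway, and HMOX1, which encodes an enzyme that breaks heme down. They were found by name among 61782 gene rows. A row of 1 gene name was found for 8 of them. CPOX lies in a row that joins it with its neighbour CLDND1, so that the value of this row cannot be assigned to either gene. Values above 0 were listed for 8 of the 9 genes in all groups, and HMOX1 was listed at 0 in all groups.

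The study asked which mRNAs are held by Argonaute 2 (AGO2), the protein that loads microRNAs onto their targets, when miR-143 is overexpressed. The cells were K562, a human erythroleukemia line. The methods of the study call the line K562-C/EBPα-ER, which carries C/EBPα in an inducible form fused to the estrogen receptor. The cells had been transduced with the lentiviral vector pLV-miR-143 or with pLV-control, so that both populations carry a vector, each of which confers puromycin resistance. Precipitation used either an AGO2 antibody (AGO) or, as the mock, unspecific IgG, which gives the groups control_IgG, control_AGO, miR143_IgG and miR143_AGO with 3 samples each.

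Each value below is the average FPKM of a group as made by the authors (fragments per kilobase of transcript, scaled to library size). With 1 value per gene and group there is no replicate spread and nothing could be tested, and every difference is a description of these 4 averages. Total RNA of the cells was not analysed here, so that less mRNA in the cells and less mRNA in a precipitate cannot be told apart.

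Heme is built from glycine and succinyl-CoA in a chain of enzymes that starts and ends in the mitochondrion and passes through the cytosol in between. The first enzyme, 5-aminolevulinate synthase, sets the rate. It has a housekeeping form, ALAS1, and a form made in erythroid cells, ALAS2, whose translation is held back by iron regulatory proteins when iron is scarce. Red cell precursors make heme in bulk for hemoglobin, and K562 cells are widely used to study this because they make embryonic and fetal hemoglobins.

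Sequence features that bear on these genes are shown first, since AGO2 finds mRNAs through microRNA seeds. The mature miR-143-3p (RefSeq, GRCh38.p14, chr5:149428978-149428998, plus strand) is printed with its seed, bases 2 to 8, in capitals.
miR-143-3p: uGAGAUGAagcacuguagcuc

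Sites were searched on the sense strand of 3′ UTRs of GENCODE 29 (GRCh38) for the 8mer TCATCTCA, the 7mer-m8 TCATCTC and the 7mer-A1 CATCTCA, each match being counted once under its longest form. Taking for each gene its longest 3′ UTR, a site was found in 2 of the 9 genes, UROS and CPOX, against 22.0% of 19071 coding genes. No 8mer was among them. The 3 matches, with 11 bases on either side and the match in capitals, are shown because they are the only ones for miR-143-3p in the pathway genes chosen.
UROS 7mer-m8: ctgacctcaacTCATCTCcaggagcgcac
UROS 7mer-A1: ggagttcgtgcCATCTCAgacctaccctc
CPOX 7mer-A1: ataaggaagagCATCTCAtacatatcatt

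Both UROS matches, at chr10:125802828-125802834 and chr10:125802764-125802770 on the minus strand, lie in a transcript with a short coding part of 420 bases. They are not in an exon of the transcript with the longest coding sequence (879 bases), whose 3′ UTR of 282 bases holds none. The CPOX match lies at chr3:98579578-98579584 on the minus strand, 1099 to 1105 bases after the stop codon in a 3′ UTR of 1237 bases. With the 3′ UTR of the longest coding transcript, 1 of the 9 genes had a site (CPOX), against 18.7% of coding genes.

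Most of these genes have short 3′ UTRs. In the transcript with the longest coding sequence, PPOX has 42 bases after the stop codon, UROD 77, ALAS2 125, ALAS1 147 and UROS 282. HMOX1 has 616 bases, FECH 1202, CPOX 1237 and ALAD 1983, against a median of 810 over 19071 coding genes. Of the other microRNA families looked up, miR-17-5p had a match in CPOX and FECH (27.3% of coding genes), miR-92a-3p in ALAD and FECH (18.0%), miR-19b-3p in FECH (19.1%) and let-7a-5p in CPOX (15.5%), all in the longest 3′ UTR. ALAS1, ALAS2, UROD, PPOX and HMOX1 had no match to any of these 5 families in the longest 3′ UTR.

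**Figure D1:**
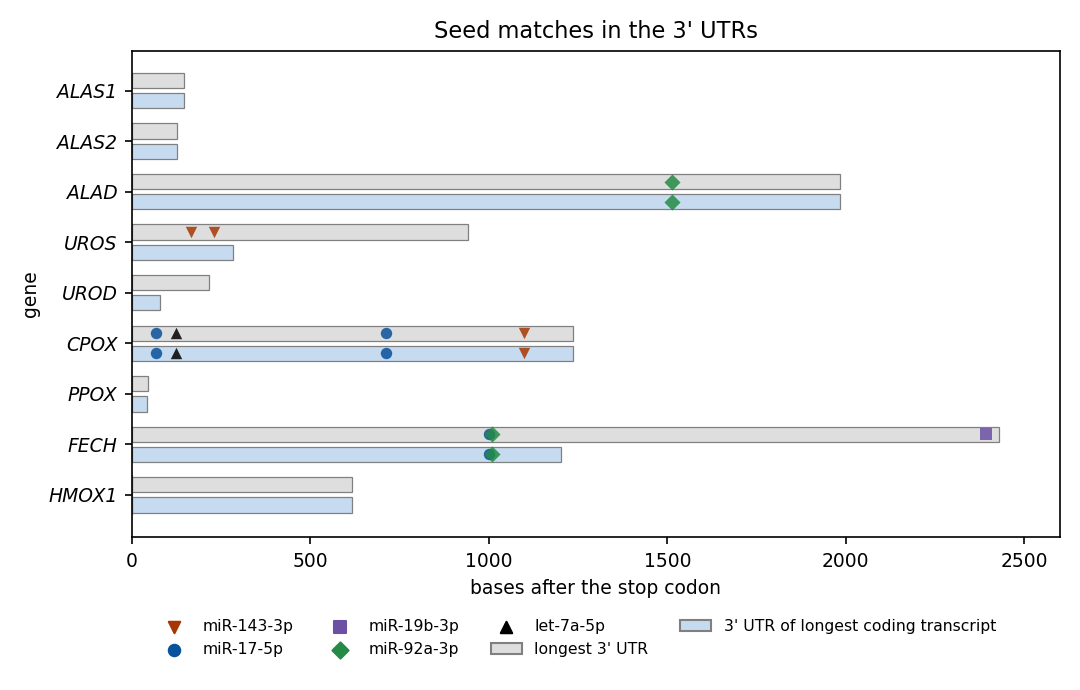
Length of the annotated 3′ UTR of each gene in bases after the stop codon, for the longest 3′ UTR (grey) and for the transcript with the longest coding sequence (blue), with the first base of each seed match of 5 microRNA families as symbols. The miR-143-3p matches of UROS are in the grey bar only, and ALAS1, ALAS2, UROD, PPOX and HMOX1 carry no symbol.

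ALAS2 carries the letters of an iron-responsive element in its 5′ UTR, the hairpin to which iron regulatory proteins bind. The element was searched on the sense strand as a C, 5 bases, the loop CAGTGN, and 5 bases that pair with the first 5 (Watson-Crick or G with T). It was found in all 4 coding transcripts of ALAS2 with a 5′ UTR, at chrX:55030947-55030963 on the minus strand, and in none of the other 8 genes. Over 18951 coding genes, 31 (0.164%) had a match, among them FTH1, FTL and SLC40A1, which are known for this element. The loop is in capitals.
ALAS2 element: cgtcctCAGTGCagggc

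The vectors and the cell type were checked against the data. The MIR143 row held 0 with the control vector, and with pLV-miR-143 it held 44781 FPKM after IgG and 118393 FPKM after AGO2 precipitation. The 11 erythroid markers lie in 9 rows, since some share a joined row, and a joined value cannot be assigned to 1 gene. Of the 11 markers, 10 were above 0 in all groups. The 9 rows summed to 596 to 1150 FPKM, of which a joined row shared by several markers gave 229 to 523 FPKM. Of 7 granulocytic and monocytic markers, MPO, ELANE and CD14 were listed at 0 in all groups, and the summed FPKM was between 19.1 and 45.2, mostly SPI1 and ITGAM. The 3 hepatic markers were at 0 throughout. The part of these markers in the results was not tested. Depth differed between the groups. The smallest products of FPKM and length that a group lists (its low edge), which fall as depth rises, were lowest in miR143_AGO, and against it 1.09 times as high in control_AGO, 1.64 times in miR143_IgG and 12.9 times in control_IgG. The median of rows of 1 FPKM or more was 9.98 and 7.19 FPKM in the mock precipitates of control and miR-143 cells, and 5.79 and 5.76 FPKM in their AGO2 precipitates.

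The pathway enzymes differed widely in level, and since FPKM is per length the levels can be set side by side. UROD, which removes carboxyl groups from uroporphyrinogen in the cytosol, was the highest of the 9 genes in every group. It was at 226 FPKM with IgG and 121 FPKM with AGO in control cells, and at 170 FPKM with IgG and 75.1 FPKM with AGO in miR-143 cells. It exceeded the next gene 7.46 times with IgG and 10.3 times with AGO in control cells, and 5.25 and 3.36 times in miR-143 cells, and it was higher than 95.3% to 97.2% of the rows of 1 FPKM or more. UROD lies at chr1:45012147-45015575 on the plus strand.

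The first enzyme was listed mostly as its erythroid form. ALAS2 (chrX:55009055-55031064, minus strand) was at 11.4 FPKM with IgG and 8.74 FPKM with AGO in control cells, and at 17.7 FPKM with IgG and 15.4 FPKM with AGO in miR-143 cells. ALAS1 (chr3:52198086-52214327, plus strand) was at 0.544 FPKM with IgG and 3.47 FPKM with AGO in control cells, and at 1.95 FPKM with IgG and 8.10 FPKM with AGO in miR-143 cells. ALAS2 thus exceeded ALAS1 in each group, by 21.0 times in control_IgG and 9.09 times in miR143_IgG, but only by 2.52 times in control_AGO and 1.90 times in miR143_AGO. The ALAS1 value of control_IgG was 1.88 times the low edge of that group at the length of its transcript and rests on few fragments.

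ALAD (chr9:113386317-113401333, minus strand), which joins a pair of aminolevulinate molecules into porphobilinogen, was at 2.43 FPKM with IgG and 6.47 FPKM with AGO in control cells, and at 7.31 FPKM with IgG and 22.3 FPKM with AGO in miR-143 cells. It was the seventh of the 9 genes in control_IgG and the second in miR143_AGO. UROS (chr10:125784980-125823285, minus strand), which closes the tetrapyrrole ring, was at 9.50 FPKM with IgG and 10.8 FPKM with AGO in control cells, and at 3.81 FPKM with IgG and 11.3 FPKM with AGO in miR-143 cells. Its value in miR143_IgG stood below the other groups, which were close to each other.

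The last enzymes act in or at the mitochondrion. The row joining CPOX (chr3:98579446-98593723, minus strand), which oxidises coproporphyrinogen, with CLDND1 (chr3:98497912-98523066, minus strand), a membrane protein gene, was at 30.3 FPKM with IgG and 11.8 FPKM with AGO in control cells, and at 32.5 FPKM with IgG and 19.6 FPKM with AGO in miR-143 cells. CPOX and CLDND1 do not overlap in GENCODE 29, and CPOX shares 163 exonic bases with AC021660.3 on the same strand. PPOX (chr1:161166410-161178013, plus strand), which makes protoporphyrin, was at 8.02 FPKM with IgG and 3.97 FPKM with AGO in control cells, and at 10.6 FPKM with IgG and 10.5 FPKM with AGO in miR-143 cells. PPOX shares 1118 exonic bases with B4GALT3 on the other strand, and whether the library kept the strand is not given in the sources used here. B4GALT3 has a row of its own, at 37.3, 15.0, 31.9 and 28.7 FPKM in control_IgG, control_AGO, miR143_IgG and miR143_AGO, and reads of the shared bases cannot be assigned without strand.

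FECH (chr18:57548283-57586772, minus strand), ferrochelatase, which inserts the iron, was at 4.01 FPKM with IgG and 3.92 FPKM with AGO in control cells, and at 0.915 FPKM with IgG and 4.53 FPKM with AGO in miR-143 cells. As for UROS, only miR143_IgG was apart. Its processed copy FECHP1 was listed at 0 in all groups. HMOX1 (chr22:35380361-35394214, plus strand), the inducible heme oxygenase, was listed at 0 in all groups, and an FPKM of 0 does not exclude a low level or a failed estimate. All 77 ribosomal protein gene names looked up had a value above 0 in at least 1 group.

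**Figure D2:**
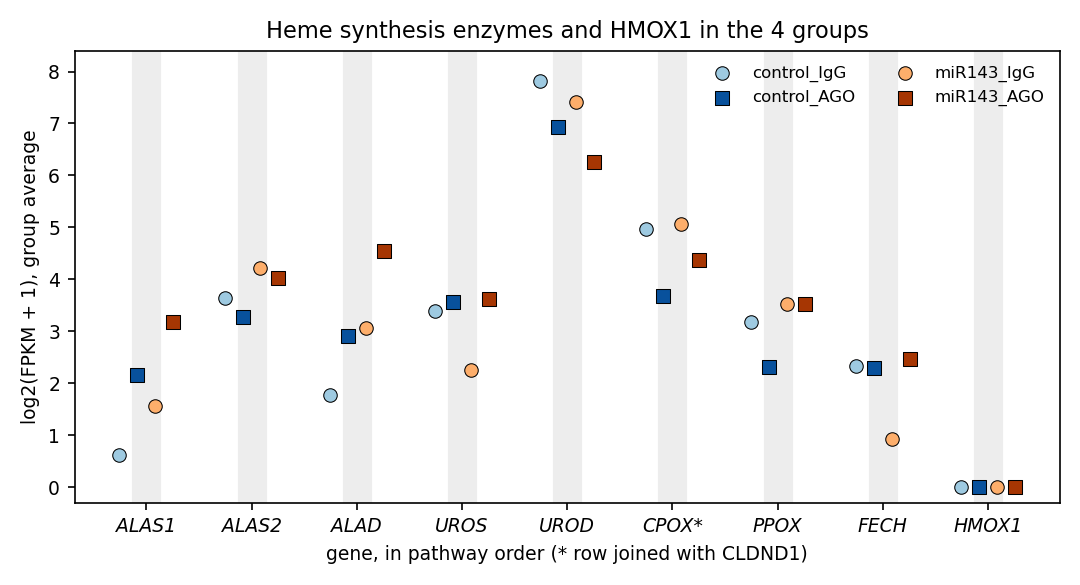
Average level of each gene in the 4 groups as log2(FPKM + 1), with circles for the mock precipitates and squares for the AGO2 precipitates. UROD is highest throughout, ALAS1 and ALAD are higher in squares than in circles of the same cells, UROS and FECH are lowest in miR143_IgG, and HMOX1 is at 0.

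The profile of UROD over the groups was set against 10776 other rows of 1 gene name by the Euclidean distance of the 4 values of log2(FPKM + 1). The nearest were PABPC1, which encodes the cytoplasmic poly(A) binding protein (distance 0.56), FKBP8 (0.69) and SNRPA (0.76). PABPC1 was at 244 FPKM with IgG and 145 FPKM with AGO in control cells, and at 239 and 76.9 FPKM in miR-143 cells. HMOX1, at 0 throughout, has no profile to compare.

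AGO2 was then compared with the mock precipitate within each cell population, as log2 of (FPKM + 1) over (FPKM + 1), which understates the change of low genes, over rows that reached 1 FPKM in any group of the comparison. ALAS1 and ALAD were more than 2-fold higher in AGO than in IgG in both populations, and UROS and FECH in miR-143 cells. UROD and the joined CPOX row were on the lower side in both, also with the groups scaled to the same median or upper quartile. A ratio past 2-fold was common among all rows, so that these counts do not set the genes apart.

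In control cells, AGO was at least 2-fold higher than IgG for 2 of the 8 enzyme rows, against 34.5% of 9919 rows, and 1 was at least 2-fold lower, against 36.2%. The log2 ratio was 1.53 for ALAS1 and 1.12 for ALAD, plain ratios of 6.37 and 2.66. As many as 22.4% of all rows were as high as ALAS1 or higher. The joined CPOX row had a log2 ratio of −1.29, UROD of −0.90 and PPOX of −0.86. ALAS2 (−0.35), FECH (−0.026) and UROS (0.17) were nearer to 0. ALAS1 entered this comparison through its AGO value alone, since it was below 1 FPKM in control_IgG. The median of the 8 rows was −0.19, as was that of all rows. With the groups scaled to the same median over the 5089 rows of 1 FPKM or more in all groups, both became positive (0.36 and 0.47). CPOX (−0.68) was no longer past 2-fold, and ALAS2 (0.23) and FECH (0.49) turned positive.

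In miR-143 cells, AGO was at least 2-fold higher for 4 of the 8 rows, against 26.6% of 10643 rows, and 1 was at least 2-fold lower, against 33.5%. The log2 ratio was 1.63 for ALAS1, 1.53 for FECH, 1.49 for ALAD and 1.36 for UROS. The plain ratios were 4.17, 4.95, 3.06 and 2.98 in the same order. FECH entered through its AGO value alone, at 0.915 FPKM in miR143_IgG. UROD had a log2 ratio of −1.17 and the joined CPOX row of −0.70, while ALAS2 (−0.19) and PPOX (−0.013) were nearer to 0. The median of the 8 rows was 0.67 and that of all rows −0.22. With the groups scaled to the same median, UROD (−0.88) was no longer past 2-fold, ALAS2 (0.085) and PPOX (0.25) turned positive, and the medians became 0.94 and 0.063.

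The comparisons of control and of miR-143 cells share no library. Of the 8 rows, 2 (ALAS1 and ALAD) were at least 2-fold higher in both, against 15.0% of the 8648 rows compared in both. In control cells ALAS1 entered through its AGO value alone, and its IgG value of 0.544 FPKM rests on few fragments. At least 2-fold lower in both were 0 rows, against 16.4%. The ratio was above 0 in both for 3 rows (ALAS1, ALAD and UROS), below 0 in both for 4 (ALAS2, UROD, CPOX and PPOX, of which ALAS2 in both and PPOX in miR-143 cells turned positive under either scaling), and of opposite sign for FECH, which was positive in both under either scaling. None of the 8 rows reached 10-fold in either direction in either population, against 9.36% of all rows without and 5.27% with miR-143. The study set its 10-fold cut-off on another comparison, increased AGO2 binding in miR-143 cells over control cells.

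**Figure D3:**
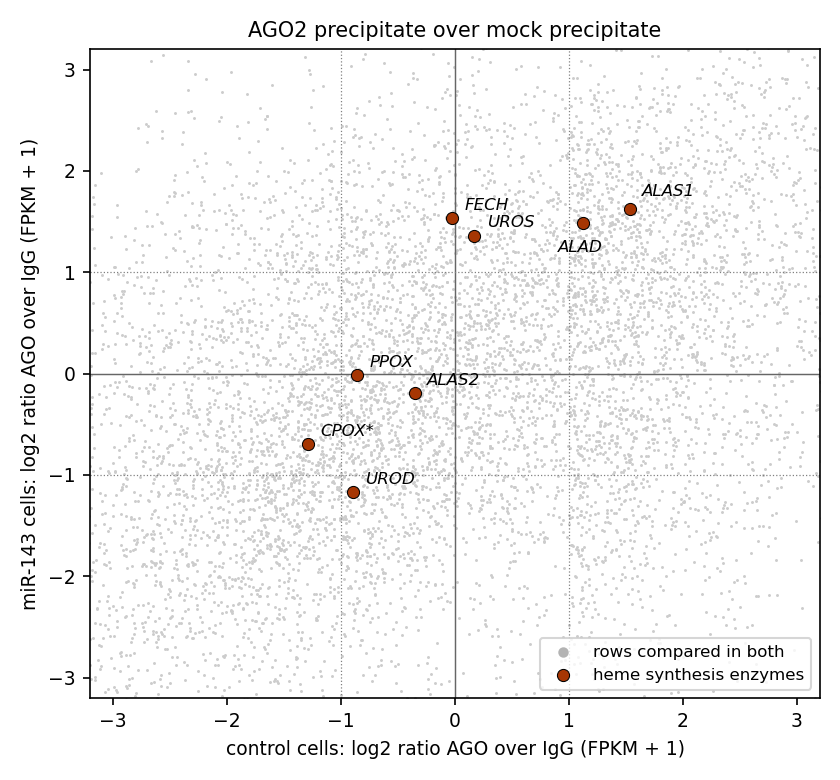
AGO over IgG as a log2 ratio for control cells (x axis) and for miR-143 cells (y axis), with 8648 rows compared in both in grey, 1213 of which lie outside the axes, and the 8 enzyme rows in colour. Dotted lines mark 2-fold. ALAS1 and ALAD lie past 2-fold along both axes, and FECH and UROS only along the y axis.

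The central comparison of the study, miR-143 cells over control cells in the AGO2 precipitate, was made next. ALAD, PPOX and ALAS1 were more than 2-fold higher in miR143_AGO than in control_AGO, and UROD was lower. The log2 ratio was above 0 for 7 of the 8 rows, against 57.5% of 9798 rows. Of the 8 rows, 3 were at least 2-fold higher, against 17.7% of all rows, and 0 were at least 2-fold lower, against 14.1%. The log2 ratio was 1.64 for ALAD, from 6.47 to 22.3 FPKM. It was 1.21 for PPOX, from 3.97 to 10.5 FPKM, and 1.03 for ALAS1, from 3.47 to 8.10 FPKM. B4GALT3, which shares exonic bases with PPOX, went from 15.0 to 28.7 FPKM in the same groups. Reads of the shared bases cannot be assigned without strand.

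ALAS2 (0.75) and the joined CPOX row (0.69) were below 2-fold. FECH (0.17) and UROS (0.07, or −0.041 with the groups scaled to the same median) were close to the median of all rows, which was 0.17. UROD had a log2 ratio of −0.68, from 121 to 75.1 FPKM, the only one below 0, and 20.1% of all rows were as low or lower. The median of the 8 rows was 0.72. None reached 10-fold in either direction, against 1.03% of all rows. With the groups scaled to the same median, 2 of the 8 rows were past 2-fold, both higher, against 33.1% of all rows in either direction. ALAS1 (0.95) stayed short of it.

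The mock precipitates, made without the AGO2 antibody, were compared in the same way. Their depth differed, the low edge being 12.9 times that of miR143_AGO in control_IgG and 1.64 times in miR143_IgG. Whether differences in this pair come from the cells, the unspecific background or depth was not tested. Here 1 of the 8 rows was at least 2-fold higher in miR143_IgG than in control_IgG, against 36.2% of 10172 rows, and 2 were at least 2-fold lower, against 26.8%. ALAD was higher, with a log2 ratio of 1.28. FECH (−1.39) and UROS (−1.13) were lower, and UROS was short of 2-fold with the groups scaled to the same median (−0.91). FECH entered through control_IgG alone, and without the pseudocount its log2 ratio was −2.13. ALAS1 had a log2 ratio of 0.93 and a plain ratio of 3.57, from 0.544 to 1.95 FPKM. The others were ALAS2 at 0.59, PPOX at 0.36, CPOX at 0.10 and UROD at −0.40. None reached 10-fold in either direction, against 8.87% of all rows. The median of the 8 rows was 0.23, against 0.17 over all rows.

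ALAD was therefore at least 2-fold higher in miR-143 cells with the AGO2 antibody and with IgG alike. No library is shared between the AGO pair and the IgG pair, but both come from the same control and miR-143 cells. Their signs were the same for 6 of the 8 rows, against 51.2% of the 8056 rows compared in both. UROD was among the 6, with a ratio that was negative in both. The genes are not replicates, so that this count is a description only. UROS and FECH had opposite signs, except that UROS was negative in both with the groups scaled to the same median.

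**Figure D4:**
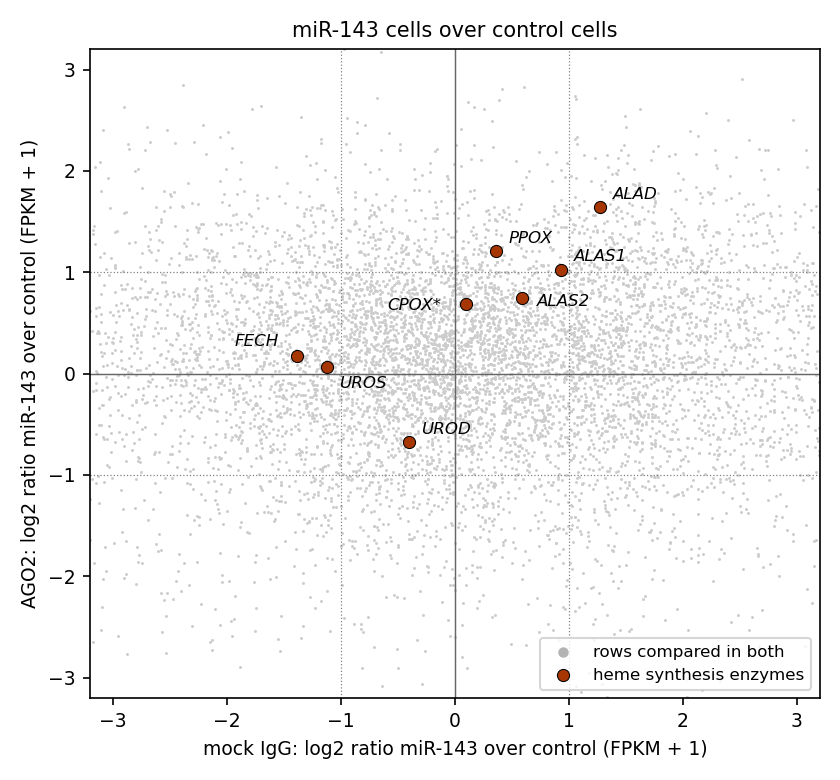
Log2 ratio of miR-143 over control cells in the mock precipitates (x axis) and in the AGO2 precipitates (y axis), with 8056 rows compared in both in grey, 765 of which lie outside the axes, and the 8 enzyme rows in colour. Dotted lines mark 2-fold. ALAD lies past 2-fold along both axes, PPOX and ALAS1 only along the y axis, and FECH and UROS only along the x axis on its lower side, ALAS1 and UROS falling inside these lines with the groups scaled to the same median.

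The IgG-corrected ratio divides AGO over IgG in miR-143 cells by AGO over IgG in control cells, and it uses the same 4 values again. Of the 8 rows, 2 were at least 2-fold higher, against 29.0% of 11914 rows, and 0 were at least 2-fold lower, against 33.5%. They were FECH, with a log2 ratio of 1.56, and UROS, with 1.19, the genes that were low in miR143_IgG and close to 0 in the AGO pair. PPOX (0.85), CPOX (0.59), ALAD (0.37), ALAS2 (0.16), ALAS1 (0.09) and UROD (−0.28) were below 2-fold. With the groups scaled to the same median, UROS (0.87) was below 2-fold too, and ALAS2 (−0.15) and ALAS1 (−0.023) turned negative. The median was 0.48, against −0.09 over all rows, and none reached 10-fold in either direction, against 10.3% of all rows. For ALAS1 the sign turned without the pseudocount, with a plain ratio of 0.654, and its value rests on the low level in control_IgG.

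Other genes of heme biology were taken from a list of 23, chosen from general knowledge. In the AGO pair, 1 of 21 rows compared was at least 2-fold higher, against 17.7% of all rows, and 2 were at least 2-fold lower, against 14.1%. The median of the list was 0.33, against 0.17 over all rows. BLVRA, a biliverdin reductase, was listed at 0 without the miR-143 vector and with it at 2.93 FPKM with IgG and 2.50 FPKM with AGO.

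The strongest AGO over IgG values of the list were those of transport and degradation genes. SLC48A1, a heme transporter, was at 3.85 FPKM with IgG and 64.9 FPKM with AGO in control cells, and at 3.54 FPKM with IgG and 63.5 FPKM with AGO in miR-143 cells. Its log2 ratio between AGO and IgG was 3.76 in control and 3.83 in miR-143 cells. SLC25A28, a mitochondrial iron importer, was listed at 0 with IgG and at 83.3 FPKM with AGO in control cells, and at 2.89 and 103 FPKM in miR-143 cells. HMOX2, the constitutive heme oxygenase, has 2 rows, of which the one with the higher mean was used. It was at 27.0 FPKM with IgG and 81.2 FPKM with AGO in control cells, against 5.61 and 134 FPKM in miR-143 cells. A heme oxygenase was thus listed in all groups although HMOX1 was at 0. Of the list, 7 of 21 rows had AGO over IgG of 2-fold or more in control cells, against 34.5% of all rows, and 8 were as far below, against 36.2%. With miR-143, 8 of 22 were higher, against 26.6%, and 5 lower, against 33.5%. In the mock pair 8 of 22 were higher with miR-143, against 36.2%, and 6 lower, against 26.8%. For the IgG-corrected ratio 7 of 23 were higher, against 29.0%, and 5 lower, against 33.5%.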

How the data were processed

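RNA precipitated with an AGO2 antibody or IgG was sequenced from 12 samples in 4 groups, taken from the sample titles. Per the labels ribosomal RNA was removed and cDNA made with random primers, whereas the methods name a TruSeq RNA kit. According to the submitters' processing notes the authors used TopHat and Cufflinks on hg38. Versions and annotation are not given in the sources used here. The deposited FPKM values are 1 average per row and group, so that the depth of single samples is unknown and no interval, test or spread could be given. The design foresaw this form. Several gene names are joined in 2140 rows.

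From these, log2 ratios with a pseudocount of 1 were computed for 5 comparisons, over rows of 1 FPKM or more in any group of the comparison. Thresholds were 2-fold and 10-fold. The study used 10-fold for increased AGO2 binding in miR-143 cells over control cells, and here 10-fold was applied in either direction to all comparisons. Python 3.11.15 was used with pandas 2.3.3 and numpy 2.4.6. The ratio step was checked with set folds put into a copy of the deposited values, which tests its arithmetic only. FPKM is scaled by the total of each library, so abundant RNAs such as MIR143 can lower all other values, by an amount that was not tested. Gene positions, transcripts and UTRs came from GENCODE 29 (GRCh38), matched by symbol, and microRNAs from RefSeq (GRCh38.p14). The stop codon was counted with the coding part. The low edge is the 10th lowest product of FPKM and length above 0 over genes of 1 transcript.

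Genes were chosen, and lists written, with earlier results of these data known. The genes named are the 9 chosen genes, those of 23 other heme genes past 2-fold between the AGO groups or past 10-fold elsewhere, and the 3 rows nearest to the highest gene. Some genes that this rule or the marker lists cover are not reported here. The 5′ UTR element, the PPOX overlap, the FECH copy FECHP1 and ribosomal protein names were looked up after values had been seen. Alternatives were a pseudocount of 0.1, plain ratios, scaling to the same median or upper quartile, other filters, leaving out joined rows, summing rows of 1 name, and other 3′ UTRs.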

Additional observations from a re-analysis of the deposited data

How the results depend on the processing

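No paired analysis was possible because only group averages, without replicate numbers, were analysed, and for the same reason no alternative without a replicate was run. Of 160 values of single genes under another pseudocount, plain ratios or another scaling, the settings that can move them, 147 stayed within 1.5 times of the reported value, 13 moved further, 11 of them with a pseudocount of 0.1 or plain ratios (ALAS1 and FECH), and 0 values past 2-fold changed sign. With a mean of at least 5 FPKM, which removes low genes, 1 of 5 rows was past 2-fold in AGO over IgG of control cells, against 68.4% of all rows. It was 1 of 5 in the IgG pair, against 54.9%, and 1 of 6 in the IgG-corrected ratio, against 58.7%. The median log2 ratio of AGO over IgG was then −0.86 in control and −0.013 in miR-143 cells. In miR-143 cells it was 1.36 without joined rows, and 0.00 without a filter, where HMOX1 enters at 0. With the same median, 1 of 8 rows was past 2-fold in the IgG-corrected ratio, against 61.3% of all rows. Genes with a miR-143-3p site numbered 1 with the shortest 3′ UTR and 1 with the longest coding transcript, the latter an alternative chosen after seeing the data. Scaling to the same median moved the median of all rows by 0.65 (AGO over IgG, control cells), 0.29 (the same in miR-143 cells), 0.22 in the IgG pair and −0.24 in the corrected ratio. Against the low edge of their group, the lowest values above 0 were those of ALAS1 (1.88 times) and ALAD (10.96 times) in control_IgG.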
